A study of Sus scrofa with 21 samples.

Results

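REXO2 and 7 proteins that make, keep or degrade mitochondrial RNA were followed in whole blood of 60-day-old pigs. Members were found by reading the gene name and description that the scanner files give each probe. The search named 17 probes for 6 of the 8 genes, among 11970 genes named in all. REXO2 and LRPPRC had 2 and 2 probes, SUPV3L1 3, SLIRP 3, TFAM 6 and POLRMT 1, while no probe was named for PNPT1 or TFB2M, so these are not analysed here. All 17 probes passed the filter that removed the 25% of probes with the lowest mean. REXO2 was selected on its difference between the breeds, so that difference is given as a description with no test. The other members were named for their role, but with earlier results of these data known. The same holds for the gene lists used below.

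The DD group held 10 SLAdd pigs, an inbred minipig line kept homozygous at the SLA locus, which is the swine major histocompatibility complex. The control group held 11 Large White (LW) pigs. All 21 animals received the same standard diet ad libitum, and each gave a single array of total blood RNA. The 10 DD pigs came from 5 litters and the 11 LW pigs from 6, so siblings share a dam, and LW is another breed rather than a line that differs at the SLA locus alone.

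The arrays carry 60305 probes besides controls and were run on 3 chips that hold both breeds. On an array, 44.7% to 63.8% of probes were well above background, and no spot was saturated (0 on each array). The brightness of an array, taken as its upper quartile (75th percentile) of processed signal in log2, lay between 6.56 and 8.49 in DD pigs and between 7.37 and 8.62 in LW pigs. The DD minus LW difference in mean brightness was -0.07 for chip 1, -0.76 for chip 2 and -1.27 for chip 3. The paper reports that outlier arrays were removed and that a technical bias was detected for the last chip. In the numbering used here, the last chip is chip 3. Whether that bias is the same as the brightness difference was not tested. Without chip 3, 112 genes passed the breed test used below, against 2450 with all chips. All levels below are deposited log2 values, with the probes of a gene averaged. The number of arrays limits their precision.

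Mitochondrial DNA is copied into long transcripts that cover many genes, and these are then cut, modified, protected and broken down inside the organelle. POLRMT is the mitochondrial RNA polymerase, TFAM packages the DNA and helps to start transcription, and TFB2M opens the promoter. LRPPRC and SLIRP form a complex that protects messenger RNAs, while PNPT1 and the helicase SUPV3L1 form the degradosome. REXO2 is an oligoribonuclease that clears the very short RNA fragments which degradation leaves behind.

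Probe sequences show what the array read. The REXO2 probe printed here carries the difference described first, the LRPPRC probe belongs to a member whose breeds nearly coincided, and the MGME1 probe belongs to a gene outside the members whose call held in every alternative run. Each is 60 bases long and was copied from the scanner files. Capitals mark the forward reading frame that holds no stop codon, which covers 57 bases in each.
REXO2: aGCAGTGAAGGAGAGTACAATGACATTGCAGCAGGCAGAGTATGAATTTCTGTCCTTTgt
LRPPRC: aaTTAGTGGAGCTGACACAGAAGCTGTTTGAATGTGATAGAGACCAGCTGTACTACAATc
MGME1: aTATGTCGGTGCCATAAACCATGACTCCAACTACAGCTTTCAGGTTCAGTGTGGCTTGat

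Neither REXO2 probe shared a stretch of 20 bases, on either strand, with any other probe of the array. The RefSeq annotation of Sscrofa11.1 places REXO2 at chr9:41977969-41988699. Exon positions of the probes were not determined, since no genome sequence was used. Both REXO2 probes were well above background in all 10 DD and all 11 LW pigs. Before normalization, the processed signal of the printed probe ran from 2840 to 6880 in DD pigs and from 118 to 3250 in LW pigs.

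REXO2 was high in every DD pig. Its level was 13.32 in DD_01, 12.56 in DD_06, 13.62 in DD_08, 13.49 in DD_10, 12.89 in DD_11, 13.01 in DD_13, 14.18 in DD_16, 13.47 in DD_19, 13.84 in DD_21 and 13.19 in DD_23. The mean was 13.36 ± 0.47 (SD, n = 10), and the SD was close to the median SD of all 10258 tested genes in DD pigs, which was 0.41. Siblings differed little, by 0.17 in the closest DD pairs and by 0.71 in the widest.

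LW pigs were split. REXO2 read 8.87 in LW_02, 8.04 in LW_04, 8.25 in LW_05, 8.22 in LW_09, 8.07 in LW_12, 8.46 in LW_14, 8.97 in LW_15 and 8.24 in LW_22. It read 13.04 in LW_07, 12.15 in LW_18 and 11.05 in LW_24. These 3 animals thus stood apart from the other 8 LW pigs by a gap of 2.08, and LW_07 lay within the range of the DD pigs. LW_07 was 32.1-fold above LW_04 and LW_24 was 8.06-fold above it on the linear scale. Of the 10 DD pigs, 7 were above every LW pig, and the other 3 lay below LW_07 alone.

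The high LW values followed litters only in part. LW_07 and LW_18 were the 2 arrays of LW litter 6 and differed by 0.89. LW_24 belonged to LW litter 5, where its sibling LW_12 was among the lowest, 2.98 away. The remaining LW pairs differed by 0.18 to 0.72. They were not of a single chip either, since LW_07 was on chip 1 and the other two on chip 3. Each of these 3 pigs is given on its own below, since no label sets them apart.

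**Figure D1:**
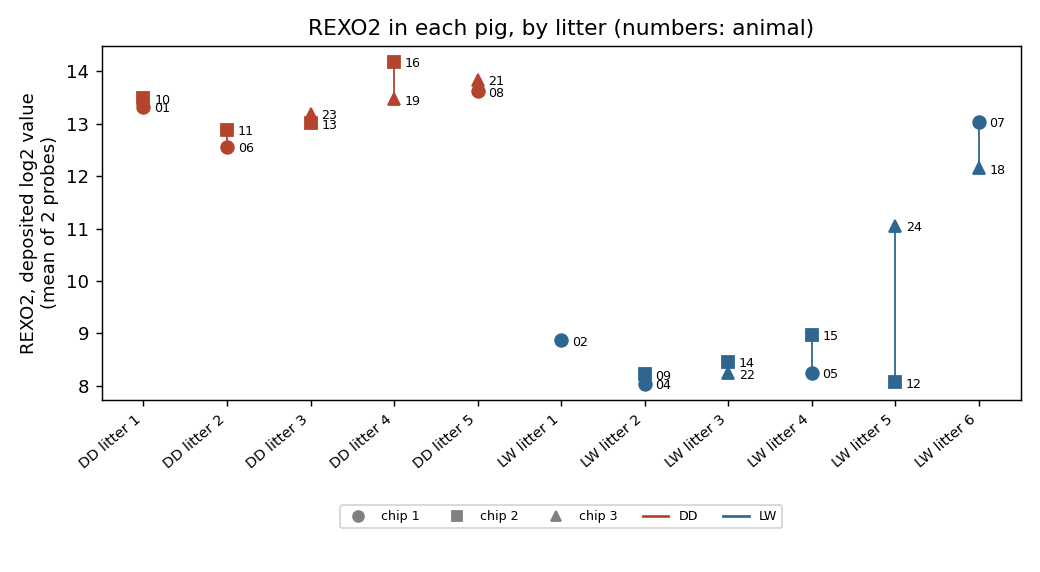
REXO2 in each pig (y axis, deposited log2 value, mean of 2 probes) for each litter (x axis), with the chip as marker shape, DD in red, LW in blue and lines joining siblings. The DD pigs sit between 12.56 and 14.18, 8 LW pigs between 8.04 and 8.97, and LW_24, LW_18 and LW_07 at 11.05, 12.15 and 13.04.

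Both probes gave the same picture. For the printed probe, DD pigs averaged 12.12 ± 0.50 (SD, n = 10), whereas LW pigs averaged 8.14 ± 1.81 (SD, n = 11). For the other probe these were 14.59 ± 0.46 and 10.65 ± 1.81. Their breed differences were 3.99 (SE 0.52) and 3.93 (SE 0.52). As a description over arrays of one platform, the probes had a Pearson r of 0.99 within the 11 LW arrays and 0.94 within the 10 DD arrays.

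The REXO2 difference of DD minus LW was 3.96 (SE 0.52) in the linear model with chip and litter, or 15.5-fold. It was 3.11 with brightness as a covariate and 2.74 without chip 2. The difference of 3.96 was the third largest in size of the 10258 genes, after TOR3A at 4.57 and LOC100519082 at 4.11. This rank depends on how probes were named, since 34014 of 60305 had no name here. The paper, with its own probe annotation, lists a larger change for IFITM3. Within chips it was 3.62, 4.96 and 3.02. The LW spread was wide as well. The LW SD of 1.80 ranked 15th of all tested genes, where the median was 0.33. Because the difference averages over a split LW group, it stands for few single animals. Relative to the DD median, the 8 low LW pigs were at -5.36 to -4.42, LW_24 at -2.35, LW_18 at -1.24 and LW_07 at -0.35.

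Among the LW pigs with high REXO2, brightness was 7.37 in LW_07, 8.46 in LW_18 and 8.04 in LW_24, against an LW median of 8.41. Each of these 3 was dimmer than the low-REXO2 LW pigs of its own chip. Those read 8.14 (LW_02), 7.97 (LW_04) and 8.62 (LW_05) on chip 1, and 8.58 (LW_22) on chip 3. The part of brightness in the REXO2 values of these pigs was not tested. LW_07 was the dimmest LW array. Averaged over 6 tested erythroid markers, the level was 13.33 in LW_07, 12.73 in LW_18 and 12.69 in LW_24, in an LW range of 12.13 to 13.33 and a DD range of 12.52 to 13.70. The platelet list (5 of 6 markers tested) read 10.68, 9.33 and 9.84, in an LW range of 9.26 to 10.68 and a DD range of 8.62 to 10.59. LW_07 thus held the highest erythroid and platelet levels of the LW pigs. LW_18 held the lowest LW levels of the T cell list (8.35, LW range up to 9.24) and the B cell list (8.28, up to 9.85). LW_24 held the lowest of the monocyte list (8.91, up to 10.13) and the granulocyte list (9.88, up to 11.01). On the list of NK and cytotoxic genes they read 11.86 in LW_07, 10.80 in LW_18 and 10.80 in LW_24, inside the LW range of 10.45 to 12.53. The part of these levels in the REXO2 values was not tested. In bulk blood, fewer cells of a type and less RNA per cell cannot be told apart.

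Of the 5 other members that were tested, 1 passed an adjusted p of 0.05 (limma with Benjamini-Hochberg adjustment over 10258 genes), which was TFAM, lower in DD pigs. Over all genes, 23.9% passed, 11.2% higher and 12.7% lower in DD pigs, so 1 of 5 is near the background. Of the 2450 genes called, 46.9% were higher in DD pigs, a share that scaling to the 75th percentile moved to 64.1%. The median difference of the 5 members was -0.05, next to -0.06 over all genes. None of these 5 had a breed difference of a size near that of REXO2.

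TFAM fell by 0.38 (SE 0.12, adjusted p = 0.0326). Its levels ran from 6.65 through a median of 7.25 to 7.77 in DD pigs and from 7.03 through 7.63 to 8.06 in LW pigs. The groups overlapped, with 3 DD pigs (DD_01, DD_21 and DD_23) below every LW pig. All 6 probes had a negative difference, from -0.49 to -0.20, although 2 of them overlap in sequence and are not separate readings. RefSeq places the gene at chr14:92261713-92279731.

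The TFAM call was not stable. Within chips, the difference was -0.16, -0.20 and -0.87, with the widest gap on chip 3, where the DD arrays were also dimmest against LW. With brightness as a covariate it was -0.12 (adjusted p = 0.875), and without chip 3 it was -0.16 (adjusted p = 0.635). Leaving out any 1 of DD_01, DD_10, DD_19, DD_21, DD_23, LW_05, LW_12, LW_18, LW_22 or LW_24 also ended the call, with an adjusted p of up to 0.088.

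POLRMT, read by a single probe named from its description, did not pass the test. It spanned 8.89 to 9.73 in DD pigs, around a median of 9.27, and 9.10 to 9.55 in LW pigs, around 9.36. The difference was -0.05 (SE 0.09, adjusted p = 0.713). DD pigs lay on both sides of the LW range, 2 above it and 2 below. The annotation puts POLRMT at chr2:77694271-77708099.

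LRPPRC, at chr3:96474510-96590706, was the member whose breeds were closest. DD pigs lay between 7.38 and 7.85 and LW pigs between 7.34 and 7.81. The difference was -0.01 (SE 0.08, adjusted p = 0.919). Its sign turned in several alternatives, and in no alternative run did it pass the threshold.

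SLIRP, the partner of LRPPRC at chr7:100710472-100718290, had a difference of 0.07 (SE 0.07, adjusted p = 0.532). DD pigs ranged from 7.53 to 8.02 and LW pigs from 7.42 to 7.92. Its 3 probes did not move together, with differences of 0.38 (SE 0.12), 0.06 (SE 0.09) and -0.25 (SE 0.14). The gene value of SLIRP thus averages readings of opposite sign.

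SUPV3L1, at chr14:72245526-72272948, had a difference of -0.20 (SE 0.12, adjusted p = 0.214). DD pigs ran from 5.78 to 6.61 and LW pigs from 5.66 to 6.76, with the lowest LW value in LW_07. Of its 3 probes, 2 have the same sequence letter for letter and differed by -0.31 and -0.25. The remaining probe was well above background in 0 of 10 DD and 1 of 11 LW pigs, yet it has the same weight in the gene mean. With the filter on signal well above background the difference was -0.28 (adjusted p = 0.0871 in limma). With the probe of highest mean it was -0.31 (adjusted p = 0.0738), so neither passed. Within chips the difference of the gene mean was 0.13, -0.16 and -0.61.

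**Figure D2:**
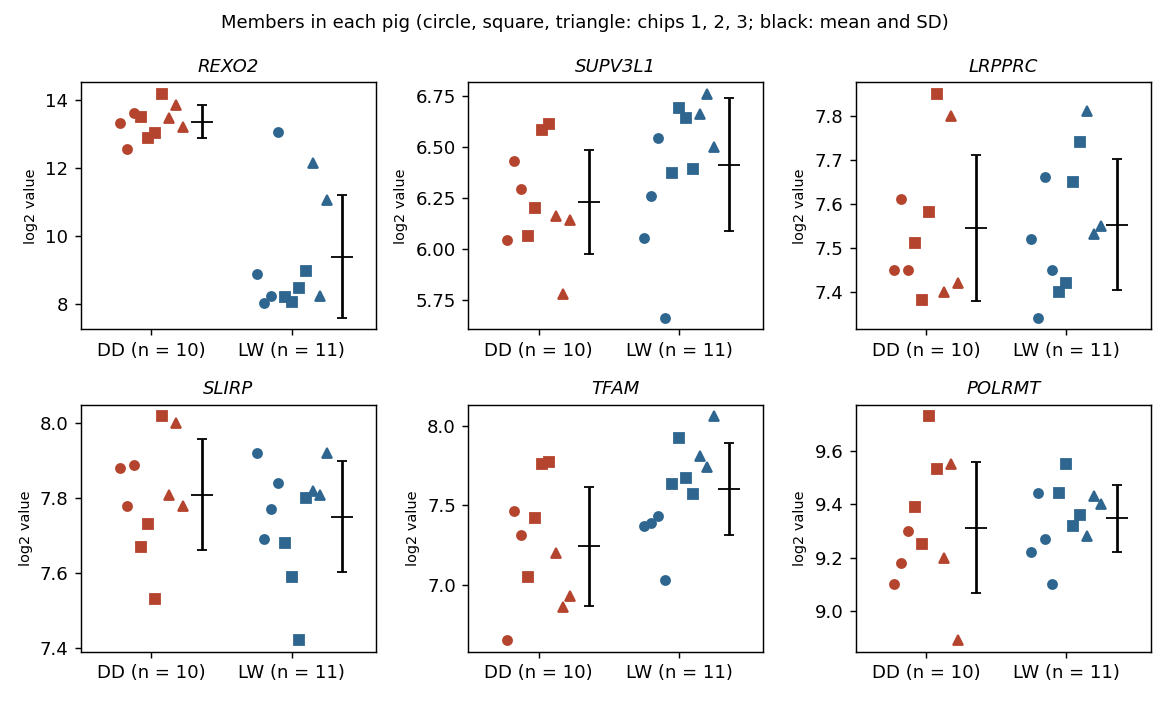
Deposited log2 value (y axis) of the 6 measured members in each pig, DD in red and LW in blue, with marker shapes for chips 1 to 3 and the mean and SD in black. REXO2 spans 8.04 to 13.04 in LW pigs, while the widest range of another member in LW pigs is that of SUPV3L1, from 5.66 to 6.76.

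Around these members, 79 further genes were listed, of which 56 were tested. They cover mitochondrial RNA and DNA metabolism, its regulators and relatives of the exonuclease that need not act in mitochondria. In DD pigs 6 were higher and 7 were lower, or 23.2% of those tested, which is near the 23.9% of all genes. The median difference was -0.13. By role, 3 of 7 transcription genes passed (2 higher, 1 lower), as did 1 of 5 processing genes (higher), 3 of 9 modification genes (1 higher, 2 lower) and 1 of 9 stability genes (lower). In the decay list 1 of 7 passed (lower), and 2 of 5 regulators and 2 of 5 relatives of the exonuclease did so (1 higher and 1 lower in each). None of 9 genes of mitochondrial DNA maintenance passed (0 in limma, with 3 below an unadjusted p of 0.05).

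MGME1, a mitochondrial exonuclease that acts on single-stranded DNA and carries the array's older symbol C20orf72, had the largest downward difference of the list. Its levels were 4.33 to 5.46 in DD pigs and 5.54 to 6.19 in LW pigs, so the groups did not overlap. It fell by 1.00 (SE 0.11, adjusted p = 7.03e-06), as the mean of 2 probes. The brighter probe alone gave -1.41 (SE 0.16). The filter on signal well above background gave the same value, so the dimmer probe did not pass that filter. All 10 DD pigs lay below all 11 LW pigs, but the share of all tested genes that separate in this way is not given here. Within chips the difference was -0.76, -0.97 and -1.31. It passed the threshold in all 14 alternatives, where it ranged from -1.41 to -0.51, and with each pig left out in turn.

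ISG20, an interferon-induced exonuclease of the DEDDh family to which REXO2 also belongs, rose by 1.03 (SE 0.31, adjusted p = 0.0238). It spanned 11.04 to 14.13 in DD pigs and 10.14 to 12.42 in LW pigs. Its call was lost without DD_21 or without LW_18 (adjusted p of up to 0.0601). It was also lost with litter means (difference 1.02, adjusted p = 0.0745), without chip 2 (0.98, adjusted p = 0.0897), without chip 3 (0.98, adjusted p = 0.296) and with brightness (1.28, adjusted p = 0.124). Among 15 tested interferon-stimulated genes, the DD level was past the threshold upward in 8 and downward in 0, where 11.2% and 12.7% of all genes were. Their median difference was 0.82.

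TEFM, the elongation factor of the mitochondrial polymerase, rose by 0.58 (SE 0.14, adjusted p = 0.00843). It lay between 5.22 and 6.34 in DD pigs and between 4.64 and 5.66 in LW pigs, with 5 DD pigs above every LW pig. With brightness as a covariate it was 0.50 (adjusted p = 0.198), with litter means 0.55 (adjusted p = 0.0624) and without chip 3 0.42 (adjusted p = 0.296). HSD17B10, a subunit of mitochondrial RNase P, rose by 0.69 (SE 0.21, adjusted p = 0.0253). Its call was lost without DD_21, DD_23, LW_18 or LW_22, and with brightness as a covariate the difference was 0.06. The value for PPRC1, a coactivator of nuclear genes for mitochondria, rose by 0.56 (SE 0.14, adjusted p = 0.0131). It rests on 1 kept probe, at 14.34 to 15.43 in DD pigs and 13.91 to 15.35 in LW pigs. Whether that probe reads PPRC1 was not tested. The difference was 0.10 with brightness as a covariate and 0.26 (adjusted p = 0.163 in limma) without the filter, which brings in dimmer probe signal.

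Of the enzymes that modify mitochondrial tRNAs, GTPBP3 rose by 0.49 (SE 0.14, adjusted p = 0.0179), though not past the threshold without LW_18 (0.0566). TRMU fell by 0.46 (SE 0.12, adjusted p = 0.0163). With brightness as a covariate these were 0.32 and -0.24, and neither passed. Without chip 3, 1 gene of the 56 passed, which was MGME1.

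The products of this machinery, the transcripts of mitochondrial DNA, were higher in DD pigs. Of 13 genes tested, 11 rose, 0 fell and 13 had a positive difference, with a median of 0.81. This is 84.6% of the list, against 11.2% of all genes higher in DD pigs. The highest difference was that of MT-ND2, a subunit of respiratory complex I, at 1.23 (SE 0.20, adjusted p = 0.000369). The lowest was that of MT-CYB, the cytochrome b of complex III, at 0.49 (SE 0.22, adjusted p = 0.0973), which did not pass, nor did MT-ND4L. These genes share long precursor transcripts and are not independent readings.

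The mean over the 13 genes ran from 12.30 through a median of 12.51 to 13.66 in DD pigs and from 11.12 through 12.11 to 12.63 in LW pigs. The groups overlapped, and the difference within chips was 0.32, 1.13 and 0.92. Without chip 3, 1 gene passed, and with brightness as a covariate 2 did. MT-ND2 was at 1.16 (adjusted p = 0.0671) in the former and at 0.89 (adjusted p = 0.0545) in the latter. Beside this result, 3 of 6 tested erythroid markers were higher and 0 lower in DD pigs (EPB42 by 1.02 and ALAS2 by 0.75 among them), and of 5 platelet markers 0 were higher and 1 was lower (PPBP, -0.96). Of 6 T cell markers 0 were higher and 2 lower, of 5 B cell markers 1 was higher and 0 lower, and of 5 monocyte markers 1 was higher and 1 lower. Of the NK and cytotoxic markers and of the granulocyte markers, 0 of 5 each passed in limma, and 0 had an unadjusted p under 0.05. The part of these cells in the mitochondrial transcripts was not tested.

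The LW pigs of chip 1 held the 4 highest mitochondrial levels of their breed, so the 3 LW pigs with high REXO2 are set beside LW pigs of their own chip. LW_07 was at 12.51, where the other LW pigs of chip 1 were at 12.46, 12.53 and 12.63. On chip 3, LW_18 was at 11.12 and LW_24 at 11.63, beside 11.79 in LW_22. The siblings LW_07 and LW_18 were on different chips, so pig and chip cannot be told apart between them. A relation over litters was planned, but LW pigs fall into separate clusters with fewer than 6 independent litters in each, so it cannot be tested and no pooled correlation is given.

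**Figure D3:**
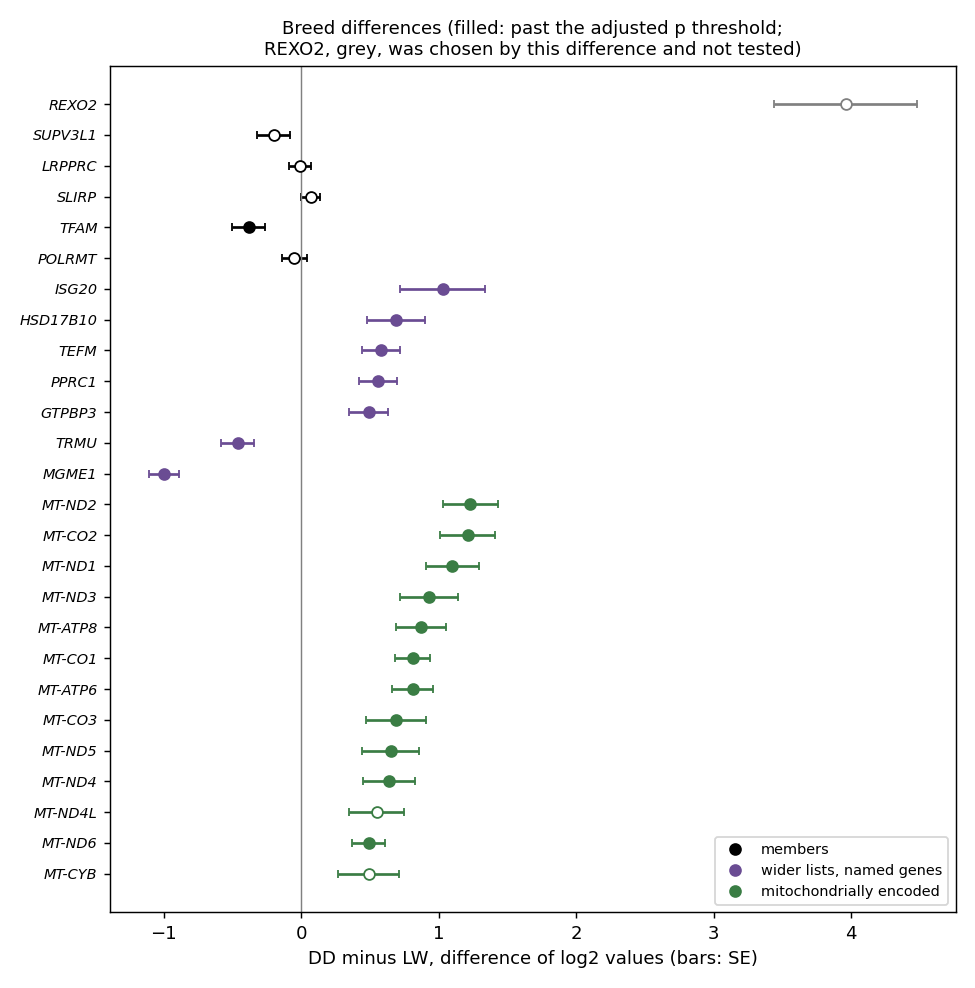
Difference of log2 values, DD minus LW, with its SE (x axis) for the 6 measured members, the named genes of the wider lists and the 13 mitochondrially encoded genes, filled where the adjusted p passed. REXO2, grey and untested, sits at 3.96, MGME1 at -1.0 and the mitochondrially encoded genes between 0.49 and 1.23.

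**Figure D4:**
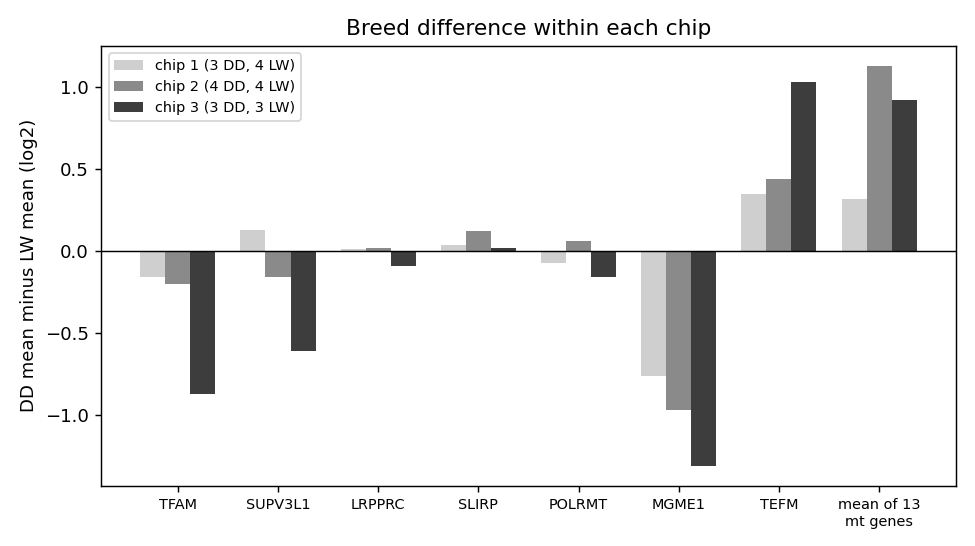
DD mean minus LW mean on the log2 scale (y axis) within each of the 3 chips for the other members, MGME1, TEFM and the mean of the 13 mitochondrially encoded genes. MGME1 is lower in DD pigs on each chip (-0.76, -0.97 and -1.31), while TFAM is at -0.87 on chip 3 and at -0.16 and -0.20 on the others.

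Around REXO2, the annotation lists 25 other genes within 1 Mb, of which 8 were tested. Of these, 5 passed the threshold, 3 of them higher (11.2% over all genes) and 2 lower (12.7% over all genes) in DD pigs. NNMT, nicotinamide N-methyltransferase, 95.6 kb away at chr9:41871072-41882415, rose by 0.83 (SE 0.26, adjusted p = 0.0281). C9H11orf71, at chr9:41946824-41947477, rose by 0.73 (SE 0.21, adjusted p = 0.0192). RBM7, a nuclear RNA-binding protein of the exosome pathway and the nearest tested gene at 22.3 kb (chr9:41947081-41955683), fell by 0.50 (SE 0.13, adjusted p = 0.0131). The annotated spans of C9H11orf71 and RBM7 overlap, yet their probes moved in opposite directions.

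The weaker calls lay farther off. USP28, a deubiquitinase at chr9:41417560-41481044, fell by 0.36 (SE 0.12, adjusted p = 0.0385), and HTR3A, a serotonin receptor subunit at chr9:41575085-41589083, rose by 0.29 (SE 0.10, adjusted p = 0.044). HTR3A is read by 1 probe, at 16.41 to 17.46 in DD pigs and 15.98 to 17.27 in LW pigs. That is near the haemoglobin gene HBB (mean 17.61 in DD and 17.35 in LW pigs). Whether the probe reads HTR3A was not tested. The USP28 call was lost without any 1 of DD_08, DD_10, DD_13, DD_19, DD_21, DD_23, LW_05, LW_12, LW_15, LW_18 or LW_22. The HTR3A call was lost without any 1 of DD_01, DD_08, DD_10, DD_13, DD_19, DD_21, DD_23, LW_05, LW_12, LW_14, LW_15, LW_18, LW_22 or LW_24. Without the sow block, neither gene passed in limma (adjusted p = 0.0562 for USP28 and 0.0595 for HTR3A). NNMT lost its call without DD_19, DD_21, DD_23, LW_12, LW_18 or LW_22, and C9H11orf71 without DD_21 or LW_18. With brightness as a covariate, NNMT turned to -0.06, C9H11orf71 came to 0.05 and RBM7 to -0.23. Without chip 3, the adjusted p of the 5 called neighbours lay between 0.335 and 0.544.

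No called neighbour had the gap that REXO2 showed among LW pigs. In LW pigs, NNMT was 10.71 in LW_07, 9.19 in LW_18 and 9.66 in LW_24, in a range of 8.09 to 10.71. RBM7 was 4.73, 5.16 and 5.05 in the same pigs, in a range of 4.73 to 5.46. C9H11orf71 was 9.18, 8.53 and 8.67, in a range of 6.92 to 9.18, so the 3 pigs were above the LW median of 8.14 there, but without a gap like that of REXO2.

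**Figure D5:**
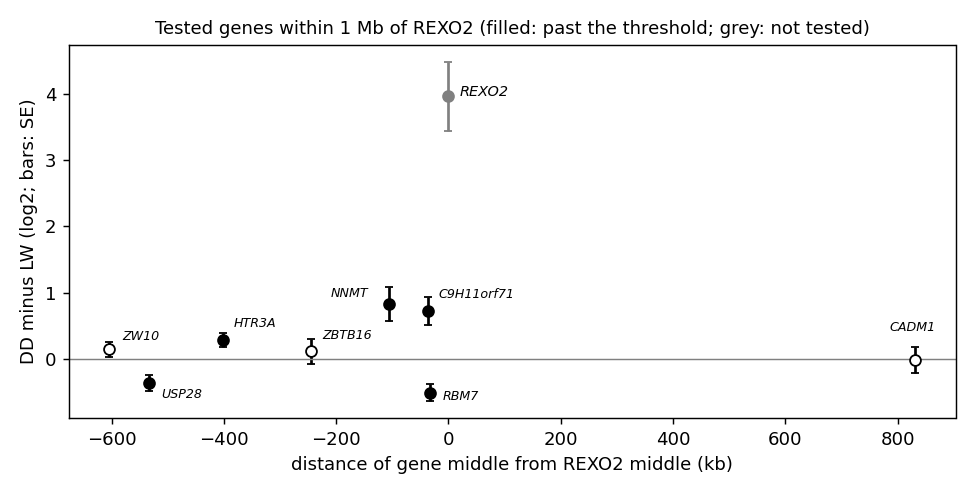
Difference of log2 values, DD minus LW, with its SE (y axis) against the distance of each gene's middle from that of REXO2 in kb (x axis), filled where the adjusted p passed. REXO2, in grey, stands at 3.96, and the 8 tested neighbours lie between -0.50 and 0.83.

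Genes most like REXO2 were ranked by Pearson r over the 21 arrays after chip and breed effects were removed, as a description among 10257 genes that share arrays. DDX50, a nucleolar RNA helicase, came first at 0.83, followed by ATP1B4 (0.73), BNC1 (0.72), CPXM2 (0.72) and EIF2AK1 (0.71), the haem-regulated kinase of translation initiation in red cell precursors. The lowest were DIAPH3 (-0.77) and EBPL (-0.75). DDX50 was 8.16 in LW_07, 7.34 in LW_18 and 7.35 in LW_24, above the 6.80 to 7.19 of the other LW pigs, although its DD range of 6.31 to 7.24 was low. BNC1 was 9.03 in LW_07 alone, against 4.00 in LW_18 and 4.09 in LW_24, and ATP1B4 and CPXM2 were likewise highest in LW_07, at 6.36 and 7.03.

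Over the 11 LW arrays alone, with chip removed, those with a high r included CAPN5 (0.96), SLC38A5 (0.95), KLHL36 (0.95) and TSPAN1 (0.94), and the lowest DIAPH3 (-0.94) and APOA1 (-0.93). None of these 4 was among the 5 highest over all arrays, while DIAPH3 was lowest in both. These r values rest on levels with chip removed, while the levels given next still hold the chip effect. Values of these 4 in LW_18 and LW_24 lay inside the range of the other LW pigs, apart from TSPAN1 (5.16 and 5.20, above 5.05). CAPN5, for example, was 4.82 and 4.49 there, in a range of 3.55 to 5.77, and 6.80 in LW_07. In each of the 9 genes named here with a high r, LW_07 was the highest LW pig.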

How the data were processed

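Total RNA from PAXgene blood was labelled with Cy3 and hybridized to an Agilent 60K custom pig array. Arrays were read with Agilent Feature Extraction 10.7.3.1, per the submitters' processing notes. The authors deposited scanner intensities, not normalized between arrays, and a log2 matrix made by them through normexp background correction and quantile normalization. Their deposited well-above-background flag was taken as given.

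The deposited log2 matrix was used throughout. Probes in the lowest 25% of mean value and controls were removed, and kept probes of a gene were averaged. Probes were named by symbol, locus, accession, older symbol or identical sequence, and 34014 of 60305 were left without a name. Breed and chip were fixed effects and the sow a random block (duplicateCorrelation, consensus correlation -0.1) in limma 3.58.1 with R 4.3.3, with eBayes and Benjamini-Hochberg adjustment at 0.05. The sibling correlation was negative, and the block did not make the calls stricter. Without it 1860 genes passed, against 2450 with it. Sow and chip came from the study's list of animals. REXO2 is given without a test because it was chosen by the contrast, and the members and lists were chosen with earlier results of these data known.

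Named genes are all members, list genes past the threshold with a difference of at least 0.4 (at most 12), the highest and lowest mitochondrially encoded genes, the 5 most and 2 least like REXO2, and called genes within 1 Mb, apart from an item that is not reported here. Neighbour positions and names came from RefSeq (Sscrofa11.1). Alternatives re-normalized the scanner signal (normexp offset 0 or 50), scaled to the 75th percentile, changed the filter, probe summary, block, chip term or moderation, added brightness, or left out chips and pigs. The fit was tested on simulated data of 10258 genes with the same chips, where it recovered 48 of 100 genes changed by 0.5 and 91 of 100 changed by 1 (log2). It also called 8 unchanged genes. The simulated noise was independent between arrays and genes, without sibling correlation or a brightness difference. These rates therefore do not cover those features of the real arrays. Python 3.11.15, pandas 2.3.3 and matplotlib 3.10.9 made the summaries and figures.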

Additional observations from a re-analysis of the deposited data

Results flagged for a closer look

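Of 33 named genes, 1 had a DD pig far from the other 9 by the ratio of its gap to the range of the group, against Dixon's critical value for 10 pigs. GTPBP3 was 4.47 in DD_13, where the next lowest DD pig was at 5.36 and the highest at 5.96, a ratio of 0.596. GTPBP3 is read by 1 probe here. Chance puts about 1 in 20 groups past this limit. The 11 LW pigs are too many for this rule, so the REXO2 values of LW_07, LW_18 and LW_24 were not put to it.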

How the results depend on the processing

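Over the 14 alternatives, the REXO2 difference ran from 2.74 (without chip 2) to 4.29 (without chip 3), and from 3.73 to 4.32 with each pig left out. All lay within 1 residual SD of 3.96, but that SD is 1.34 and holds the LW split, so the limit is wide. REXO2 was chosen by this contrast and the reruns use the same arrays, so these ranges are a description only. The other counts fell with litter means, without the chip term, without chip 3 and with brightness as a covariate, in that order. Over all genes, 366, 719, 112 and 242 passed. Of the other members, 0 passed in each of these fits of limma, with 1, 1, 0 and 0 below an unadjusted p of 0.05. In the wider lists it was 2, 5, 1 and 2, and 8 without chip 2. Of the mitochondrially encoded genes it was 5, 7, 1 and 2. With each pig left out in turn, 870 (without LW_18) to 3934 genes (without DD_06) passed, 0 to 1 other members, 5 (LW_18) to 23 (DD_06) list genes and 8 to 13 mitochondrially encoded genes. In list genes, DD_21 gave 7, and DD_23 and LW_22 gave 8 each. Over all genes these 3 gave 1158, 1504 and 1490. Signs turned for SUPV3L1 (0.000917 without chip 3, 0.12 with brightness), LRPPRC (0.03 without chip 3, -0.04 to 0.01 with a pig left out), SLIRP (-0.25 with the probe of highest mean, -0.01 with brightness), POLRMT (0.01 at the 75th percentile, 0.02 without chip 3) and NNMT (-0.06 with brightness). None of these passed there, and the cause was not tested. Of 665 alternative values of 19 single genes, 535 kept direction and side of the threshold. No paired analysis was possible because animal numbers are not shared between the breeds. The planned relation of REXO2 with other measures over litters was not run, since LW pigs fall into separate clusters. In SUPV3L1 and other dim genes, signal over background limits the values.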
